A study of Mus musculus with 10 samples.

Results

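The genes described here are 9 members of the angiotensin cascade other than renin: the precursor gene Agt, the peptidase genes Ace and Enpep, the receptor genes Agtr1a, Agtr1b, Agtr2 and Mas1, and the genes of 2 receptor-associated proteins, Agtrap and Atp6ap2. They were chosen by gene symbol, and all 9 of 9 were found among the 32648 genes of the deposited table. RNA was measured by RNA-seq in cells sorted for yellow fluorescent protein from the kidney cortex of C57BL/6 mice 8 to 12 weeks old that carried the Ren1c-YFP reporter, in which renin regulatory sequence drives the fluorescent protein. All 4 groups carried that reporter and were taken 72 h after surgery, with 1000 cells used from each kidney. Coarctation, a narrowing of the aorta placed between the origins of both renal arteries, was done in 3 mice, and 2 sham mice had the operation without exposure or narrowing of the aorta. The groups are the left and the right kidneys of the coarctation mice and of the sham mice, so that each mouse gave a pair of libraries, 10 in all. The mice are named as biological replicates in the study's design text.

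Renin cuts angiotensinogen, the product of Agt, to angiotensin I, which angiotensin-converting enzyme, the product of Ace, trims to the active peptide angiotensin II. Angiotensin II acts mainly through AT1 receptors, which rodents encode in separate genes, Agtr1a and Agtr1b, and on renin cells this receptor is known for restraining renin release in a short feedback loop. The AT2 receptor gene Agtr2 and the Mas receptor gene Mas1 mediate responses that often oppose those of AT1, aminopeptidase A, the product of Enpep, removes the first residue of angiotensin II, Agtrap encodes a protein that binds AT1 receptors and promotes their internalization, and Atp6ap2 encodes the (pro)renin receptor, which is also an accessory protein of the vacuolar proton pump.

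Sequence of both AT1 receptor genes is shown first, because their likeness bears on how far their counts can be told apart. Agtr1a lies on chromosome 13 (GRCm38, 30336441 to 30382867, plus strand) and Agtr1b on chromosome 3 (20314473 to 20367177, minus strand), each with its whole coding sequence of 1077 bases in 1 exon (GENCODE vM21). The coding sequences differ at 99 positions (90.8% identity). The first 120 bases of each, read 5′ to 3′ from the start codon, are given with capitals where the other gene has a different base.
Agtr1a: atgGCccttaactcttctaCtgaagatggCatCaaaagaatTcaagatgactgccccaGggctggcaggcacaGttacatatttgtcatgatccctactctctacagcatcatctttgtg
Agtr1b: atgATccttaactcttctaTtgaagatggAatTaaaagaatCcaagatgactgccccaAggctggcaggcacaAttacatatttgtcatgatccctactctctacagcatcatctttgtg
These stretches hold 8 of the 99 differences. The longest run of bases shared by the coding sequences was 66, and 1.57% of all 50-base windows of the main Agtr1b transcript also occurred in that of Agtr1a. How reads from such shared stretches were divided is not known, so low Agtr1b values are uncertain.

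Each library held 20029817 to 32006229 estimated counts. Some mice differed from the rest: in a principal component analysis of all tested genes, both kidneys of sham mouse 1 scored 107.3 and 127.7 on component 1 (1.12 or less for the other 8 libraries) and both kidneys of coarctation mouse 1 scored 72.5 and 110.5 on component 2 (10.7 or less for the others). Renin cell markers were present in every library, with Ren1 at 5451 to 48620 TPM (a level corrected for transcript length), Akr1b7, an aldo-keto reductase gene, at 1246 to 9780 TPM and the reporter EYFP at 60.6 to 979 TPM. Markers of other cells that make parts of the cascade were present as well. The 16 proximal tubule markers summed to 1593 to 10644 TPM in coarctation left, 2341 to 4936 TPM in coarctation right, 1039 to 5693 TPM in sham left and 1291 to 4143 TPM in sham right kidneys, with none of the 16 at 0 in any library. Kap alone was at 397 to 9094 TPM. The 8 mesangial markers, of which Rgs2 and Des are also on other lists, summed to 802 to 2263 TPM and the 10 podocyte markers to 46.1 to 99.9 TPM, whereas the 12 endothelial markers summed to 65.5 to 112 TPM, most of it from Emcn (57.3 to 100.5 TPM), with Cdh5, which encodes the endothelial cadherin, at no more than 0.842 TPM.

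The cascade was unevenly represented in these cells. Agtr1a, Atp6ap2 and Enpep were among the more abundant messages, while the genes of the substrate and of the converting enzyme were low. Mean TPM over the 10 libraries decreased in the order Agtr1a (68.2 ± 16.5, SD, n = 10), Atp6ap2 (43.5 ± 12.9), Enpep (28.5 ± 5.34), Agtrap (8.25 ± 4.26), Agtr1b (2.86 ± 2.52), Mas1 (1.13 ± 0.764), Agt (0.973 ± 0.808), Ace (0.329 ± 0.175) and Agtr2 (0.0277 ± 0.0402). Agtr1a exceeded 92% of the 18825 tested genes in mean TPM, and Ace exceeded 20.7%.

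**Figure D1:**
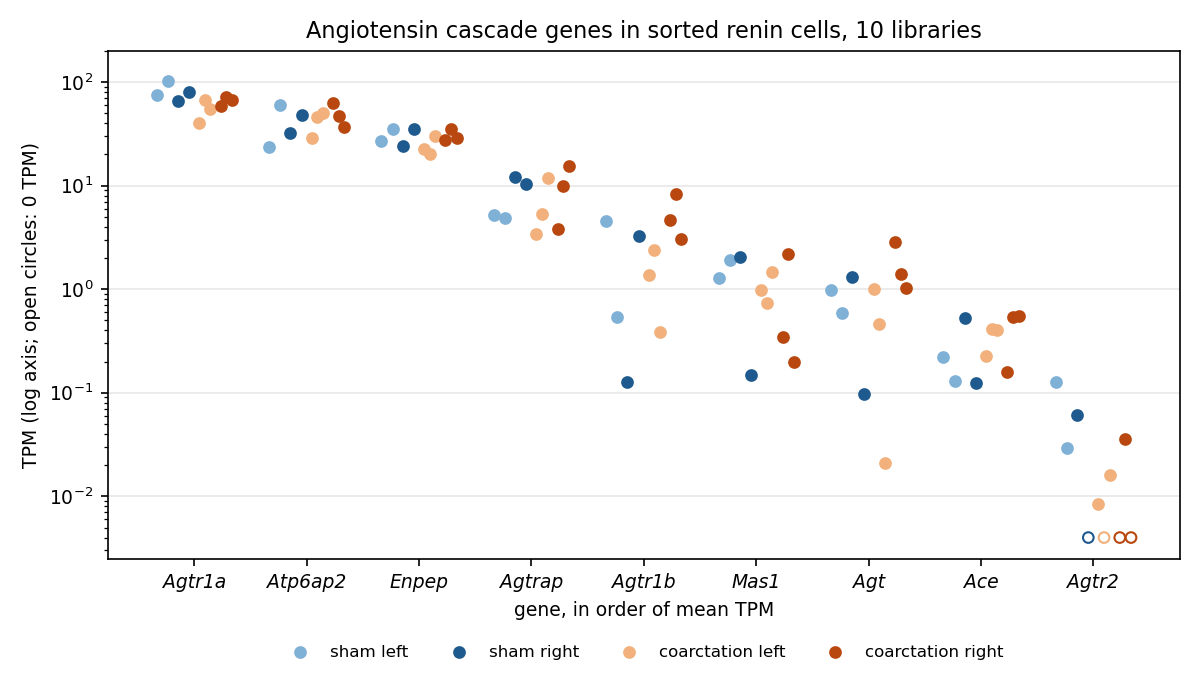
TPM (log axis) of the 9 genes in each of the 10 libraries, with 1 point per library, colours for the 4 groups and open circles for values of 0. Agtr1a, Atp6ap2 and Enpep lie between 20.2 and 103 TPM in all libraries, and Agtr2 is at 0.126 TPM or lower.

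Enpep was higher than Agtrap in 10 of 10 libraries without overlap of their ranges (20.2 to 35.4 and 3.40 to 15.6 TPM). The other neighbours in the order overlapped in range. Agtr1a exceeded Atp6ap2 in 9 of 10 libraries, Atp6ap2 exceeded Enpep in 9, and Agtrap exceeded Agtr1b in 9. Agtr1b exceeded Mas1 in 7 and Mas1 exceeded Agt in 7, so the order of these 3 low genes changed from library to library. Ace exceeded Agtr2 in 10 of 10 libraries although their ranges overlapped slightly (lowest Ace 0.124, highest Agtr2 0.126 TPM).

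The members also differed in how steady they were. The SD of log2 CPM (counts relative to the library total, TMM-scaled) over the 10 libraries was 0.28 for Agtr1a and 0.30 for Enpep, smaller than in all but 3.62% and 5.07% of tested genes, where the median SD was 0.81. It was 1.84 for Agtr1b and 1.65 for Agt, larger than in 95.1% and 91.6% of tested genes. Low counts can go with a large SD. Estimated counts per library ran from about 1 to 138 for Agt, from 7.39 to 704 for Agtr1b and from 17.3 to 80.8 for Ace. The SD of Ace was below the median. The part of low counts in these SDs was not tested. The SD was 0.54 for Atp6ap2, 0.72 for Agtrap, 0.77 for Ace and 1.24 for Mas1.

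Agtr1a is the main AT1 receptor gene of the rodent kidney. In left kidneys it stood at 75.4 and 103 TPM in sham mice 1 and 2 and at 40.3, 66.4 and 55.2 TPM in coarctation mice 1, 2 and 3. Every left kidney with coarctation was below both sham left kidneys. In TMM-scaled CPM the closest of these left values were 177.3 in coarctation mouse 2 and 182.3 in sham mouse 1. In right kidneys it stood at 64.9 and 80.3 TPM in sham mice and at 58.5, 71.7 and 66.9 TPM in coarctation mice, and these groups overlapped. Within mice it was higher on the right in 3 of 3 coarctation mice and lower in 2 of 2 sham mice on the TPM scale. On the scale of the test, TMM-scaled CPM, coarctation mouse 2 had a log2 change of -0.04 instead, and those of mice 1 and 3 were 0.44 and 0.05.

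None of these Agtr1a differences passed the test over all genes. The comparison of coarctation with sham in left kidneys gave a log2 change of -0.50 (SE 0.30, 95% interval -1.14 to 0.15, edgeR quasi-likelihood adjusted p = 0.912). The right minus left change was 0.14 (SE 0.27, -0.45 to 0.72) in coarctation mice and -0.33 (SE 0.33, -1.05 to 0.39) in sham mice, and the difference between those changes was 0.47 (SE 0.43, adjusted p = 1). The interval for coarctation mice spans 0.733-fold to 1.65-fold. The left kidney value was -0.75 (SE 0.28, adjusted p = 0.988) without sham mouse 1, -0.15 (SE 0.30, adjusted p = 0.857) without sham mouse 2 and -0.37 (SE 0.36, adjusted p = 0.995) without coarctation mouse 1. Between coarctation sides it was -0.0016 (SE 0.35) without coarctation mouse 1. For Ren1 itself the coarctation mice had a mean of 38261 ± 9741 TPM (SD, n = 3) on the left and one of 9423 ± 3487 TPM on the right. In bulk RNA of sorted cells, fewer cells of a type and less RNA per cell cannot be told apart.

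Agtr1b, the other AT1 receptor gene, was far lower and far more variable. It stood at 1.37, 2.38 and 0.384 TPM in the left and at 4.69, 8.25 and 3.02 TPM in the right kidneys of coarctation mice 1, 2 and 3. All 3 right kidneys were above all 3 left kidneys, and the right kidney was higher within 3 of 3 mice, by 1.68, 1.64 and 2.75 in log2 TMM-scaled CPM. The sham pairs went in opposite directions, from 4.57 to 0.127 TPM in mouse 1 and from 0.534 to 3.28 TPM in mouse 2. The range of the sham libraries thus covered 0.127 to 4.57 TPM, from 7.39 to 288 estimated counts.

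Agtr1b did not pass in any comparison. The right minus left change in coarctation mice was 1.81 (log2, SE 1.04, 95% interval -0.45 to 4.06, edgeR adjusted p = 1), and in sham mice -0.48 (SE 1.24). Coarctation minus sham was 1.66 (SE 1.20, adjusted p = 0.995) in right and -0.62 (SE 1.12, adjusted p = 0.947) in left kidneys. The sham mice decided the size of these values. The difference between the side changes was 2.28 (SE 1.62) with all libraries, 7.12 (SE 1.59, adjusted p = 1) without sham mouse 2 and -0.79 (SE 1.34, adjusted p = 1) without sham mouse 1. The right kidney value was 5.70 (SE 1.36, adjusted p = 0.337) without sham mouse 2 and 0.70 (SE 0.97, adjusted p = 0.975) without sham mouse 1. The size of the change between coarctation sides did not rest on sham libraries, but its SE did. The value was 1.81 (SE 0.68) without sham mouse 1 and 1.81 (SE 0.67) without sham mouse 2. Without coarctation mouse 1 it was 1.87 (SE 1.36).

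As a share of the summed TPM of both AT1 receptor genes, Agtr1b made up 3.29%, 3.47% and 0.692% in left and 7.43%, 10.3% and 4.33% in right kidneys of coarctation mice 1, 2 and 3. In sham mice the shares were 5.71% and 0.518% in left and 0.196% and 3.92% in right kidneys. Agtr1b therefore made up no more than 10.3% of AT1 receptor message in these libraries, and its share was higher on the right in 3 of 3 coarctation and 1 of 2 sham mice. The summed mesangial markers moved in the same direction within the coarctation mice, from 950.5, 1312 and 1367 TPM on the left to 1344, 1897 and 2082 TPM on the right. They were also higher on the right in both sham mice (802 to 836 and 1761 to 2263 TPM). Their part in the Agtr1b values was not tested.

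The AT2 receptor gene was near the limit of detection, and the Mas receptor gene was low. Agtr2 (chromosome X, 21484544 to 21489164) was at 0 in 4 of 10 libraries and reached 13.4 estimated counts at most, in the left kidney of sham mouse 1. It was the only member that did not pass the filter on low counts, and no comparison was made for it. A count of 0 allows up to 3 counts, which is 0.0937 to 0.150 CPM over these libraries, for counting error only. Mas1 (chromosome 17, 12841079 to 12868143) stood at 0.990, 0.737 and 1.45 TPM in left and 0.342, 2.17 and 0.199 TPM in right kidneys of coarctation mice, and at 1.29 and 1.90 TPM in left and 2.04 and 0.149 TPM in right kidneys of sham mice. It was lower on the right in 2 of 3 coarctation mice and in 1 of 2 sham mice, and the groups overlapped in every comparison.

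In edgeR without a block, on the estimated counts of all libraries, Mas1 changes were smaller than their errors. The log2 values were -0.52 (SE 1.08) for right minus left in coarctation and -0.70 (SE 1.32) in sham mice (edgeR adjusted p = 1 for both). Without sham mouse 1 the sham value was -3.61 (SE 1.93, adjusted p = 1). A deposited average transcript length can move with the transcript forms to which reads were assigned. That of Agt, with 1 transcript of 1891 bases in GENCODE vM21, still ran from 1193 to 1369 bases. For Mas1 the length ran from 178 to 1915 bases, and Airn, an antisense gene, overlaps Mas1. With TPM multiplied by this length, which follows reads rather than transcripts, coarctation minus sham in right kidneys was 1.44 (SE 1.52) against -0.14 (SE 1.20). The sign of that Mas1 value therefore depended on the scale. On the same scale right minus left in sham mice was -2.68 (SE 1.67). In limma-voom with mouse as a random block it was -1.55 (SE 1.13) in sham and -1.01 (SE 0.94) in coarctation mice.

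Agt, the gene of the renin substrate, was scarce in these cells, where Ren1 stood at 5451 to 48620 TPM. It lies on chromosome 8 (124556534 to 124569706, minus strand, 5 exons). In left kidneys it was at 1.01, 0.461 and 0.0211 TPM in coarctation mice 1, 2 and 3, the last from about 1 estimated count, and in right kidneys at 2.84, 1.40 and 1.03 TPM. The right kidney was higher in 3 of 3 of these mice, with the left kidney of mouse 1 just below the right kidney of mouse 3, and on the CPM scale above it. In sham mice it was at 0.977 and 0.584 TPM on the left and 1.31 and 0.0970 TPM on the right, higher on the right in 1 of 2. Ren1 TPM was 1918-fold to 500905-fold Agt TPM in right kidneys and 29046-fold to 1745584-fold in left kidneys, so the sides overlapped. The lowest ratio was in the right kidney of coarctation mouse 1. The highest on the right, in sham mouse 2, rested on 4.80 estimated Agt counts, and the highest on the left, in coarctation mouse 3, on about 1.

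The Agt difference between the sides in coarctation mice was 1.70 (log2, SE 1.20, 95% interval -0.90 to 4.29, edgeR adjusted p = 1). In sham mice it was -0.26 (SE 1.44), and the difference between the changes was 1.96 (SE 1.87, adjusted p = 1). Without sham mouse 1 these were -2.47 (SE 2.16) and 4.17 (SE 2.50), and over single sham libraries left out the difference ran from 1.11 without the right kidney of sham mouse 2 to 4.50 without that of sham mouse 1, with an adjusted p of 0.906 or higher. Without coarctation mouse 1 the change between coarctation sides was 2.23 (SE 1.49). With mouse as a block the coarctation value was 2.34 (SE 1.08, adjusted p = 0.845). Proximal tubule cells are a known site of Agt expression. Their summed markers went from 2166 to 2341, 1593 to 3189 and 10644 to 4936 TPM from left to right in coarctation mice 1, 2 and 3. The highest left sum, 10644 TPM in mouse 3, was mostly Kap at 9094 TPM, a value above the whole sum of any other library. Kap alone ranged from 397 to 9094 TPM over the 10 libraries, and Miox, the next highest of these markers, from 183 to 937 TPM. Of several marker sums formed, only that of the 8 intercalated cell markers moved in the same direction as Agt in 5 of 5 mice. It went from 73.5 to 731, 28.7 to 87.0 and 11.02 to 130 TPM from left to right in coarctation mice and from 104 to 126 and 149 to 75.5 TPM in sham mice. Among these markers Atp6v1g3 had by far the highest median, 79.8 TPM, and the next, Slc26a4, had one of 4.61 TPM. Single markers were not compared. The part of either cell type in the Agt values was not tested.

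Ace (chromosome 11, 105967945 to 105989964, plus strand) was low in every library, at 17.3 to 80.8 estimated counts. It was at 0.228, 0.412 and 0.400 TPM in left and 0.158, 0.538 and 0.552 TPM in right kidneys of coarctation mice. In sham mice it was at 0.223 and 0.130 TPM in left and 0.526 and 0.124 TPM in right kidneys. Every left kidney with coarctation was above both sham left kidneys, but 0.228 and 0.223 TPM are nearly the same value. The fitted change in left kidneys was 1.21 (SE 0.99, edgeR adjusted p = 0.914), and right minus left was 0.07 (SE 0.85) in coarctation and 0.77 (SE 1.05) in sham mice, none of which passed. Without sham mouse 1 the sham value was -0.10 (SE 1.35).

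Enpep, which encodes aminopeptidase A (chromosome 3, 129269175 to 129332720), was one of the steadiest members. It stood at 22.5, 20.2 and 30.0 TPM in left and 27.5, 34.7 and 28.6 TPM in right kidneys of coarctation mice. In sham mice it stood at 26.8 and 35.4 TPM on the left and 24.3 and 34.8 TPM on the right. Groups overlapped in all comparisons. Its right minus left changes were 0.14 (log2, SE 0.30, 95% interval -0.52 to 0.80) in coarctation and -0.10 (SE 0.37, -0.91 to 0.71) in sham mice, so a change of 2-fold lay outside both intervals (0.698-fold to 1.74-fold and 0.533-fold to 1.63-fold).

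Atp6ap2 (chromosome X, 12587801 to 12617049) ranged from 23.6 to 62.6 TPM over libraries, while its group means lay between 40.4 and 48.5 TPM. It was at 28.6, 46.2 and 50.1 TPM in left and 62.6, 46.4 and 36.4 TPM in right kidneys of coarctation mice, and at 23.6 and 59.9 TPM in left and 32.5 and 48.4 TPM in right kidneys of sham mice. The largest step, in coarctation mouse 1, was a log2 CPM change of 1.04, and mouse 3 had one of -0.69. The sum of the 8 intercalated cell markers, which include subunits of the proton pump that Atp6ap2 serves, was higher on the right in 3 of 3 coarctation mice. In mouse 3 this sum and Atp6ap2 thus moved in opposite directions. Their part in the Atp6ap2 values was not tested. Fitted changes of Atp6ap2 were 0.11 (SE 0.41) for right minus left in coarctation, -0.09 (SE 0.50) in sham, 0.21 (SE 0.46) for coarctation minus sham in left and 0.41 (SE 0.47) in right kidneys, with edgeR adjusted p of 0.956 or higher in each. Between coarctation sides it was -0.43 (SE 0.48) without coarctation mouse 1, and in left kidneys -0.34 (SE 0.44) without sham mouse 1.

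**Figure D2:**
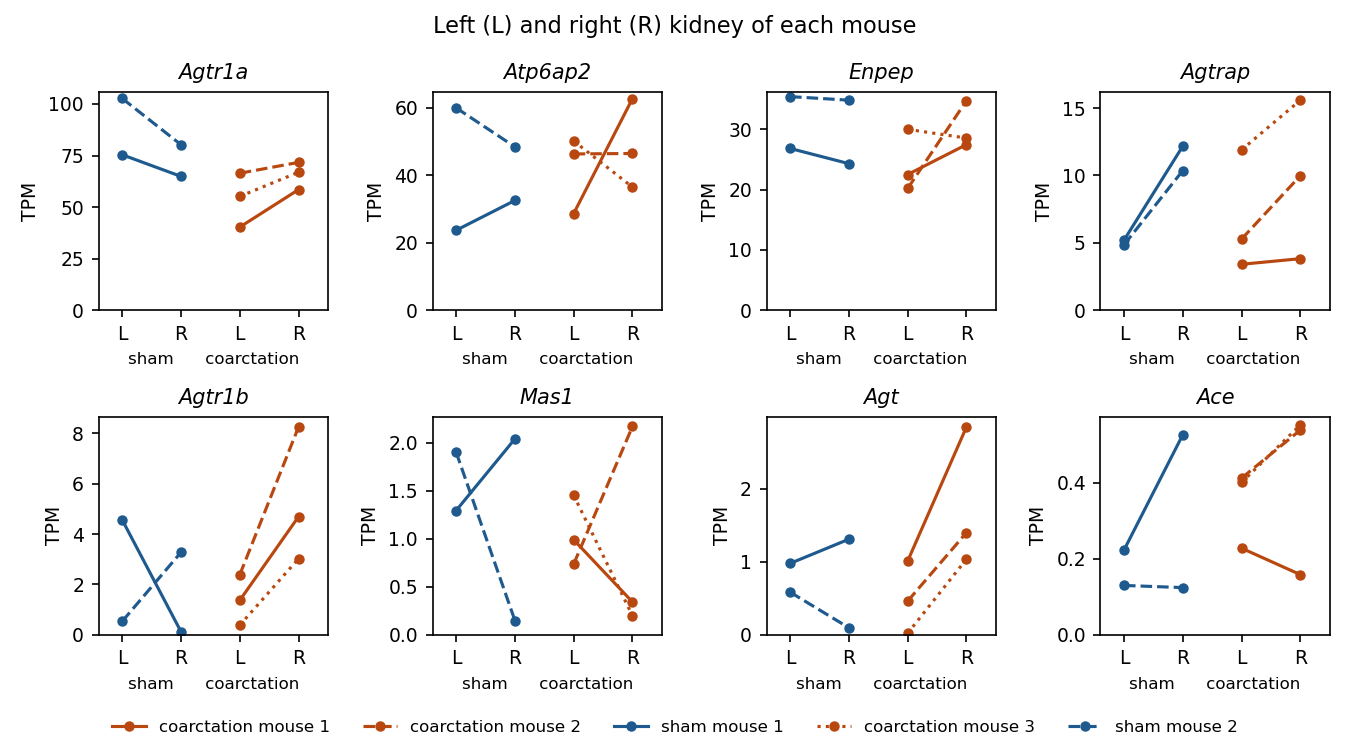
TPM of the 8 tested genes in the left (L) and right (R) kidney, with a line joining the kidneys of each mouse, sham mice in blue and coarctation mice in orange. Agtr1b is higher on the right in 3 of 3 coarctation mice, and its sham lines cross between 0.127 and 4.57 TPM.

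Agtrap was the member with the same direction between sides in all mice. It lies on chromosome 4 (148077061 to 148088031, minus strand). TPM went from 5.19 to 12.2 and from 4.85 to 10.4 from left to right in sham mice 1 and 2. In coarctation mice 1, 2 and 3 it went from 3.40 to 3.82, from 5.27 to 9.98 and from 11.9 to 15.6. Both sham right kidneys were above both sham left kidneys, whereas the coarctation groups overlapped. The right minus left change was 1.12 (log2, SE 0.64, 95% interval -0.26 to 2.51, edgeR adjusted p = 1) in sham and 0.31 (SE 0.52, adjusted p = 1) in coarctation mice, and neither passed. Without sham mouse 1 the sham value was 1.10 (SE 1.00), and with mouse as a block it was 1.12 (SE 0.37, adjusted p = 1). On the TPM scale the sums of the mesangial markers and of the 9 smooth muscle markers were also higher on the right in 5 of 5 mice. The smooth muscle sum went from 6220 to 7400, 9322 to 15183 and 11706 to 12600 TPM in coarctation mice 1, 2 and 3. In sham mice it went from 4748 to 5314 and 11128 to 12032 TPM. These sums were not formed in TMM-scaled CPM, so the direction of small steps on that scale is not known. For Agtrap in coarctation mouse 3 the log2 step was 0.16 in TMM-scaled CPM and 0.39 in TPM. The part of these marker cells in the Agtrap values was not tested.

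The deposited average transcript length of Agtrap went from 3564 to 2143 and from 2623 to 1953 bases from left to right in sham mice 1 and 2, and from 3655 to 2446, 3888 to 2432 and 1620 to 1300 bases in coarctation mice 1, 2 and 3. The right kidney thus had the shorter value in 5 of 5 mice, a pattern noticed after the values were seen. Of all tested genes, 2.34% had a shorter value on the right in every mouse and 2.27% a longer one, and the mean log2 length change of Agtrap was -0.55. It is given as a description, with no test. GENCODE vM21 lists a protein-coding Agtrap transcript of 3996 bases beside non-coding ones of 621 and 194 bases. The authors' transcript set is not given in the sources used here, and whether the shorter values reflect other transcript forms was not tested.

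On the read scale, TPM times length in the same library, the Agtrap step was smaller. It went from 26.4 to 36.9 and from 16.2 to 25.3 (scaled like TPM) from left to right in the sham mice, and from 17.6 to 13.5, 27.0 to 31.4 and 25.7 to 27.2 in coarctation mice 1, 2 and 3. The fitted change on this scale was 0.52 (SE 0.44) in sham and -0.02 (SE 0.36) in coarctation mice. In coarctation mouse 1 TPM was thus higher and the read-scale value lower on the right.

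**Figure D3:**
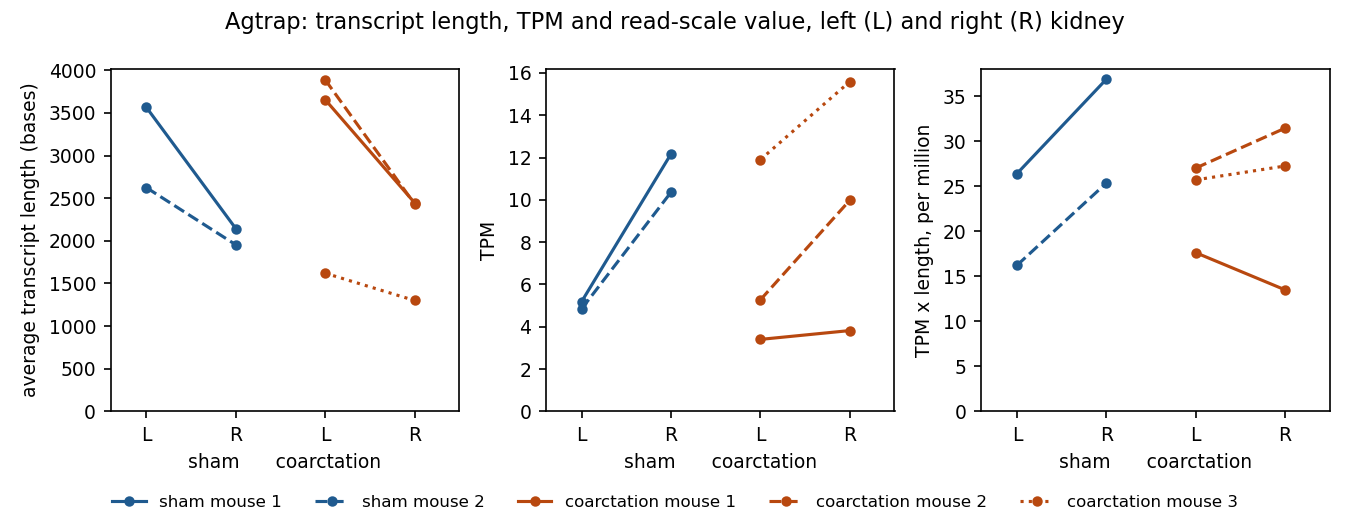
Average transcript length (bases), TPM and TPM times length (scaled like TPM) of Agtrap in the left (L) and right (R) kidney of each mouse, sham in blue and coarctation in orange. Length is shorter on the right in 5 of 5 mice and TPM is higher in 5 of 5, while the read-scale value is lower on the right in coarctation mouse 1 (17.6 to 13.5).

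The comparison of right with left kidneys in coarctation mice asks whether the cascade in renin cells differs across the constriction, and that in sham mice gives the same contrast without one. In edgeR 0 of the 8 tested members passed in coarctation mice and 0 in sham mice at an adjusted p of 0.05, with 0 at an unadjusted p under 0.05 in either, and DESeq2 and limma-voom also called 0 members. Over all 18825 genes edgeR and limma-voom called 0% in each comparison while DESeq2 called 76 genes in coarctation and 28 in sham mice, and 4.63% of genes in coarctation and 1.94% in sham mice had an unadjusted p under 0.05. Of the members 7 had a positive and 1 a negative change in coarctation mice (median log2 change 0.14, against 0.02 for all tested genes). In sham mice 2 were positive and 6 negative (median -0.18, against 0.02). Groups did not overlap for Agtr1b in coarctation (6.11% of all tested genes were higher and 5.39% lower without overlap) and for Agtrap in sham mice (9.74% higher and 10.5% lower).

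Within single mice, 6, 6 and 5 of the 8 members were higher on the right in coarctation mice 1, 2 and 3 on the CPM scale, where 51%, 49.8% and 50.2% of tested genes were. In sham mice 1 and 2 the numbers were 5 and 2, beside 50.2% and 49.6% of genes. The difference between the side changes asks whether surgery altered the contrast. There 6 members were positive and 2 negative (median 0.22, against 0.02 for all genes), edgeR called 0 of 8 with 0 at an unadjusted p under 0.05, and DESeq2 and limma-voom called 0. Over all genes edgeR called 0% and DESeq2 34 genes, and in edgeR 3.05% had an unadjusted p under 0.05.

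The comparisons of coarctation with sham ask how the members stood in kidneys of the same side. In left kidneys 3 members were positive and 5 negative (median -0.21, against -0.02 for all tested genes). Ace was higher and Agtr1a lower without overlap of the groups, as were 9.73% and 12.0% of all tested genes. In right kidneys 5 were positive and 3 negative (median 0.28, against -0.05), and 0 of 8 separated the groups, where 7.20% of genes were higher and 9.18% lower. In both comparisons edgeR called 0 members, with 0 at an unadjusted p under 0.05. DESeq2 and limma-voom called 0 as well, although Agtr1b in right kidneys had an unadjusted p under 0.05 in limma-voom. Over all genes edgeR called 0% on either side, DESeq2 called 39 genes in left and 57 in right kidneys, and in edgeR 4.75% and 3.82% had an unadjusted p under 0.05. The comparisons share samples with those between sides.

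**Figure D4:**
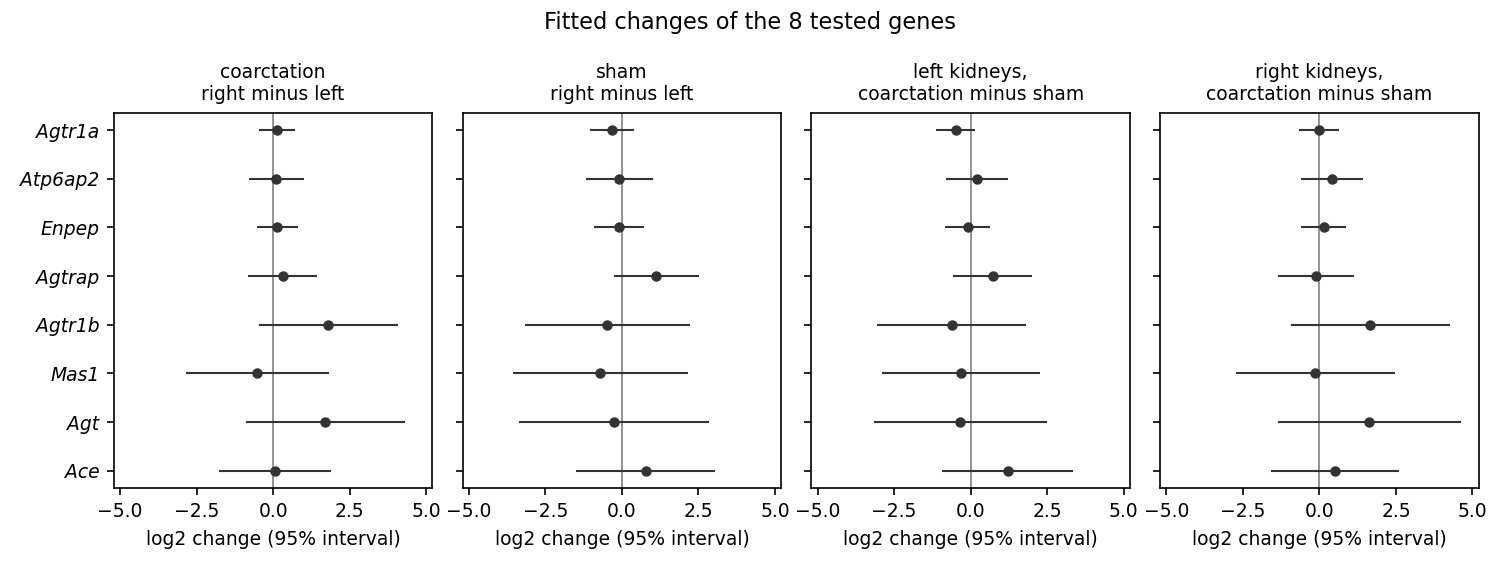
Fitted log2 changes (points) with 95% intervals (bars) of the 8 tested genes in 4 comparisons. Every interval includes 0, and those of Agtr1a and Enpep are the narrowest.

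A list of 43 other genes of the cascade covered angiotensin-forming and angiotensin-degrading peptidases, further receptors, and proteins that couple or regulate AT1 receptors, and 35 were tested. In edgeR with the filter on low counts 0 of 35 passed in any comparison, with 2, 1, 2, 4 and 1 at an unadjusted p under 0.05 between coarctation sides, between sham sides, for the difference of these, in left kidneys and in right kidneys. DESeq2 called 1 of the 35, Ren1, between coarctation sides and in right kidneys, fits with mouse as a block called Ren1 alone between coarctation sides, and limma-voom without a block called 0. Without the filter on low counts, edgeR called Mme and Ren1 between coarctation sides, Ren1 for the difference, and Igf2r and Ren1 in right kidneys. Their median log2 changes were 0.08, 0.01, 0.16, 0.18 and 0.13. Those named are among the 3 with the smallest p in each comparison.

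Between the sides in coarctation mice these were Ren1 (log2 change -2.20, SE 0.36, edgeR adjusted p = 0.165), Mme, which encodes neprilysin (3.08, SE 1.10, adjusted p = 1; mean 0.797 TPM on the left and 6.65 TPM on the right), and Arrb1, which encodes a beta-arrestin of receptor internalization (0.96, SE 0.49). Neprilysin is also a proximal tubule and podocyte enzyme. Between the sides in sham mice they included the oligopeptidase gene Thop1 (1.63, SE 0.97) and the cathepsin gene Ctsd (-0.56, SE 0.43). For the difference between the changes they included Ren1 (-2.11, SE 0.55) and Thop1 (-2.57, SE 1.25).

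In left kidneys, coarctation minus sham was -1.62 (SE 0.54) for Arrb1 and 1.65 (SE 0.73) for the dipeptidyl peptidase gene Dpp4, each with an edgeR adjusted p of 0.912. In right kidneys it was -1.85 (SE 0.38) for Ren1, 2.21 (SE 1.23) for Igf2r, a receptor that also binds prorenin, and 0.63 (SE 0.36) for the phospholipase gene Plcb1, each with an adjusted p of 0.995.

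The genes with profiles most like those of the most abundant members were found by the root mean square difference of mean-centred log2 CPM over the 10 libraries, among 9896 genes. For Agtr1a they were Epn2, an endocytic adaptor gene (0.16), Slc6a17, an amino acid transporter gene (0.17), and the chaperonin subunit gene Cct5 (0.17). For Atp6ap2 they were Wdr33, of a polyadenylation factor (0.19), Ppt1, of a lysosomal thioesterase (0.19), and the RNA polymerase subunit gene Polr2e (0.20). For Enpep they were the mitochondrial ribosomal protein gene Mrpl11 (0.10), Ghitm, of an inner mitochondrial membrane protein (0.12), and the golgin gene Golga5 (0.12). These distances are descriptions over libraries that share mice, and steady genes lie close to one another on this measure.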

How the data were processed

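RNA-seq was done on cells sorted from each kidney, with cDNA made by SMART-Seq v4 per the labels' protocols. The deposited table gives TPM, estimated counts and average transcript length per gene and library. Per the file headers, the authors derived the estimated counts from TPM (lengthScaledTPM). Per the submitters' processing notes, FastQC and GRCm38 (mm10) were used. No aligner, quantifier, annotation or strand setting is named in the sources used here.

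Estimated counts were rounded and tested in R 4.3.3 with edgeR 4.0.16 (filterByExpr, TMM, quasi-likelihood), in 1 model of the 4 groups over 10 libraries, which treats kidneys as independent. It kept 18825 genes and 8 of the 9 members. Adjustment followed Benjamini-Hochberg across every tested gene (threshold 0.05). Standard errors and 95% intervals come from that model. DESeq2 1.42.0, limma-voom (limma 3.58.1), a mouse block and left-out libraries were alternatives. The scripts were tested on simulated data. The labels' mouse number pairs the kidneys of 1 animal. Deviations from group means correlated at 0.127, 0.0496 and 0.0307 within coarctation mice 1, 2 and 3 and at 0.398 in sham mice, where 2 mice per group mirror each other.

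Named genes were all members, Ren1, the 3 other cascade genes with the smallest p per comparison and the 3 genes nearest in profile to each of the 3 most abundant members. One gene that the rule names is not reported here. Members and lists were chosen with earlier results of these data known. Reads carry no molecular identifiers. Gene positions are from GENCODE vM21 on GRCm38, matched by symbol. Of the 43 other cascade genes, 42 were matched in the table.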

Additional observations from a re-analysis of the deposited data

Results flagged for a closer look

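On the TPM scale the right kidney had more Agtr1a than the left in 3 of 3 coarctation mice and less in 2 of 2 sham mice. On that scale 54.7%, 57.6% and 60.8% of all tested genes were higher on the right in coarctation mice 1, 2 and 3, and 54.7% and 49.4% in sham mice 1 and 2. In TMM-scaled CPM the pattern was not kept, as the log2 changes of coarctation mice 2 and 3 were -0.04 and 0.05. The test of the difference between those changes gave a log2 value of 0.47 (SE 0.43, edgeR adjusted p = 1), and with mouse as a block it gave 0.47 (SE 0.26, adjusted p = 1), neither of which passed. With 3 and 2 mice per group, no group was large enough to look for single outlying libraries.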

How the results depend on the processing

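No alternative brought a member past the threshold: over 40 member results and 864 alternative values, 781 kept the direction of the main value, 83 had the other direction and 0 passed. The mouse block changed no call of a member. Its all-gene count was 5 against 0 between the sides in coarctation mice (6 with mouse as a random block). In limma-voom with the random block, unadjusted p between coarctation sides was 0.0213 for Agt and 0.0419 for Agtr1b. It was 0.0369 for Agt in the difference, 0.0445 for Agtrap between sham sides and 0.0469 for Agtr1b in right kidneys. In edgeR with mouse as a block, unadjusted p was 0.016 for Agtrap between sham sides. In edgeR without a filter on low counts, Agtr1b had an unadjusted p under 0.05 between coarctation sides, in the difference and in right kidneys. None of these passed after adjustment. Some edgeR fits with sham libraries left out also gave an unadjusted p under 0.05, for Agtr1b, Agtr1a or Atp6ap2. They left 1 library in a sham group, so their p-values are not listed. Over all genes, without a filter on low counts edgeR called 112, 19, 63, 67 and 70 genes in coarctation sides, sham sides, the difference, left kidneys and right kidneys, and DESeq2 called 76, 28, 34, 39 and 57. Leaving out libraries gave 0 to 4 genes in coarctation sides, 0 to 1 in the difference and 0 to 3 in right kidneys.

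Values near 0 changed sign. Between coarctation sides, Ace was -0.0352 in limma-voom, -0.0392 with mouse as a block and -0.0347 with a random block, and Agtrap was -0.0173 on the read scale, which was chosen after seeing the data. Between sham sides, Atp6ap2 was 0.0312 in limma-voom, 0.0342 with mouse as a block and 0.0296 with a random block. In right kidneys Agtr1a was 0.00864 without a filter and 0.00276 on the read scale, and Mas1 was 0.17 in limma-voom, with and without the random block, and 1.44 on the read scale. The cause was not tested.

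Leaving out libraries or whole mice moved the following log2 changes across 0. Where a group was left with 1 library, it was assumed to vary like the others. Between coarctation sides the range was -0.20 to 0.52 for Ace, -0.0016 to 0.37 for Agtr1a, -0.22 to 1.11 for Agtrap, -0.43 to 0.49 for Atp6ap2 and -2.17 to 0.25 for Mas1. Between sham sides it was -0.45 to 1.40 for Ace, -2.80 to 0.59 for Agt, -0.65 to 0.0011 for Agtr1a, -5.32 to 2.60 for Agtr1b, -0.66 to 0.84 for Atp6ap2, -0.55 to 0.23 for Enpep and -3.61 to 0.54 for Mas1. For the difference it was -1.34 to 0.51 for Ace, -0.79 to 7.12 for Agtr1b, -0.73 to 0.76 for Atp6ap2, -0.092 to 0.69 for Enpep and -1.47 to 3.10 for Mas1. In left kidneys it was -1.58 to 0.23 for Agt, -1.42 to 1.50 for Agtr1b, -0.053 to 1.02 for Agtrap, -0.34 to 1.16 for Atp6ap2, -0.37 to 0.22 for Enpep and -0.70 to 0.085 for Mas1. In right kidneys it was -0.11 to 1.74 for Ace, -0.27 to 0.30 for Agtr1a, -0.63 to 0.26 for Agtrap, -0.19 to 0.60 for Enpep and -1.68 to 2.48 for Mas1. Agtr1b and Agt between coarctation sides stayed positive in all alternatives (1.47 to 2.46 and 1.12 to 2.99, adjusted p from 0.566 and 0.586). Agtr1a was the highest member in 9 of 10 libraries in TPM and in 7 in CPM, which is not per length.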

Other observations

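Among the other genes of the cascade, message for Klk1, Ctsa and Ctsd was well above that for the classical converting enzyme. Klk1, a tissue kallikrein gene of the distal nephron with near-identical relatives that make its counts uncertain, ranged from 75.0 to 979 TPM, the carboxypeptidase gene Ctsa from 28.0 to 92.2 TPM and the aspartic protease gene Ctsd from 17.3 to 46.8 TPM. The mast cell protease genes Cma1, Cma2, Mcpt4 and Ctsg, whose products can form angiotensin II, did not pass the filter, and the highest value among them was 0.391 TPM. Downstream of the AT1 receptor, the regulators of G-protein signalling Rgs5 (355 to 820 TPM) and Rgs2 (76.7 to 378 TPM) were the most abundant of the 13 coupling genes, while the G-protein genes Gnaq and Gna11 averaged 11.9 and 19.8 TPM. Nox4, an oxidase gene, averaged 18.4 TPM. The bradykinin receptor genes Bdkrb1 and Bdkrb2 did not exceed 0.963 and 0.248 TPM.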
